A study of Homo sapiens with 6 samples.

Results

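The genes described here are the enzymes of glycolysis, the switches that set its flux, the regulators of the hypoxia-inducible factors (HIFs), and a few HIF target genes outside glycolysis. They were chosen by name, as 35 gene symbols, and 25 of these have a row among the 16569 genes of the deposited table; HIF1A, ARNT, HK1, GPI, PFKL, PFKM, ALDOA, GAPDH, ENO1 and LDHB were not analysed here. RNA was sequenced from LX-2 cells, a wild-type immortalised line of human hepatic stellate cells, which are pericytes of the liver and its main source of scar matrix. One group received 100 ng/mL of the secreted protein IGFBP-7 for 24 h and the other phosphate-buffered saline (PBS) for 24 h, with 3 libraries per group. All cells had been grown in DMEM with 2% fetal bovine serum and then kept 18 h without serum. No label gives an oxygen level or a hypoxia treatment, all libraries come from this single line, and separate cultures within a group are not stated in the labels, so p-values measure only the spread between libraries, which may be technical.

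Glycolysis splits glucose into pyruvate in the cytosol, and lactate dehydrogenase turns pyruvate into lactate. HIFs are pairs of an oxygen-regulated alpha subunit and a stable beta subunit. With oxygen, EGLN prolyl hydroxylases mark the alpha subunit for destruction; without it, the pair binds short DNA motifs and raises transcription of most glycolytic genes. In stellate cells, a shift towards glycolysis is known to accompany activation.

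The core letters that a HIF pair binds are ACGTG, and in some sites the variant GCGTG. RefSeq promoters (GRCh38.p14) were searched for both, on both strands, over the 250 bases before each listed start site. Of the 21 tested members with a RefSeq promoter, 18 held a match before at least 1 start site, against 59.8% of the 9185 tested genes and 47.4% of all 27305 genes with a promoter in that table; many members were picked as known HIF targets. BNIP3 held 5 separate stretches of matching letters, ALDOC 4, and HK2 up to 4 before its starts. No match was found in these windows for PGAM1, PKM or EGLN3. The promoters below belong to the regulators with the largest falls, the switches and the enzyme with the largest rises, and PKM, which fell. They lie at chr6:139374649-139374898 on the minus strand for CITED2 (ENSG00000164442), chr2:46297157-46297406 on the plus strand for EPAS1 (ENSG00000116016), and chr10:6144671-6144920 on the plus strand for PFKFB3 (ENSG00000170525). The other windows are chr3:48556804-48557053, minus strand, for PFKFB4 (ENSG00000114268), chr11:18394313-18394562, plus strand, for LDHA (ENSG00000134333), and chr15:72231191-72231440, minus strand, for PKM (ENSG00000067225). Each is the window before the first start site in the table, 5′ to 3′ on the gene's strand, with capitals marking either motif or its reverse complement, and overlapping matches joined into 1 stretch. A match is a description of letters and not of a bound site.
CITED2: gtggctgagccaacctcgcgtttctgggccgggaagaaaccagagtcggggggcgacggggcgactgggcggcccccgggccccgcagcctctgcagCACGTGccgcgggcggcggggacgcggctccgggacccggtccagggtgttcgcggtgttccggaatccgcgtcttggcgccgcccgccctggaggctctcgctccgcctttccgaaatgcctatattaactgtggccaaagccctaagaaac
EPAS1: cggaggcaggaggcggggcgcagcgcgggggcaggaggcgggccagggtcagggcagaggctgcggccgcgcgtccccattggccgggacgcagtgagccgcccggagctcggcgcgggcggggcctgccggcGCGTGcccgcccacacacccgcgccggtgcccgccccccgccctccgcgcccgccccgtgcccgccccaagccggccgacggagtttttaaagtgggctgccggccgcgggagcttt
PFKFB3: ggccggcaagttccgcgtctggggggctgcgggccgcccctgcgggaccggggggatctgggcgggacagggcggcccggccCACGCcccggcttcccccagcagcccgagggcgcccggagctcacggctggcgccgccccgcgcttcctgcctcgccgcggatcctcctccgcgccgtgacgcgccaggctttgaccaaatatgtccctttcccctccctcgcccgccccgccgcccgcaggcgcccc
PFKFB4: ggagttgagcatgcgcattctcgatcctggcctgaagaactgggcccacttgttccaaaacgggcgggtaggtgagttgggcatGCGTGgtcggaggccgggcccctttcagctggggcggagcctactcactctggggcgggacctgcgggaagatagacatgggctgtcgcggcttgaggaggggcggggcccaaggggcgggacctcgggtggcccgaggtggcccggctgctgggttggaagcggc
LDHA: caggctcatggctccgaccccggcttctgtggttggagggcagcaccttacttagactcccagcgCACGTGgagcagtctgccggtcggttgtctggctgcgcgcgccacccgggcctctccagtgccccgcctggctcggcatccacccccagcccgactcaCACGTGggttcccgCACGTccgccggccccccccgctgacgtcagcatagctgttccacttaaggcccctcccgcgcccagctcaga
PKM: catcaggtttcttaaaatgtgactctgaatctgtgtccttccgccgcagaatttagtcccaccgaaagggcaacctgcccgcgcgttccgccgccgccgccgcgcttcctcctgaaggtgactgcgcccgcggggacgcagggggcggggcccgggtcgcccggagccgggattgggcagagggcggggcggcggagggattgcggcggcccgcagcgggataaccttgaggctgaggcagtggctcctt

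Levels are the authors' normalized counts, and changes are on the log2(normalized count + 1) scale, IGFBP-7 minus PBS. Their SE, given after ±, and p come from limma-trend with Benjamini-Hochberg adjustment over all 11872 genes with a mean of at least 10. The IGFBP-7 libraries held 45242993 to 55479940 recovered reads and the PBS libraries 40599380 to 43537923. Of all tested genes 60.6% passed a limma adjusted p of 0.05, 31.3% as rises and 29.2% as falls. Scaling each library to its total, which here sums only the genes with a row, moved the median change of all genes by -0.14 and gave 2435 higher and 4176 lower genes, against 3721 and 3471 with the authors' scaling. Well-expressed genes with little change were scarce in the table, and the sources used here give no reason. Of the 1848 tested genes with a mean of at least 3000, 6 had a log2 change within 0.1 of 0 and 99.5% passed the test, whereas at means of 100 to 1000 the change was that small in 738 of 4414 genes and 51.9% passed. The count of members that passed must be read against those shares.

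Of the 24 tested members, 16 rose with IGFBP-7, 5 fell and 3 did not pass, where 31.3% and 29.2% of all tested genes rose and fell. The groups did not overlap in 21 of the 24, against 63.5% of all tested genes. The members had a median change of 0.31 beside 0.02 for all tested genes, and with libraries scaled to their totals one of 0.16 beside -0.12. Among the 14 members with a mean of at least 3000, 9 rose, where 58.8% of all genes at that level did, which is close to the background. Among the 6 with means of 1000 to 3000 all 6 rose, where 48.3% of genes did. The 16 rises had a median of 0.38 and the rises of all genes one of 0.39, but these medians are not matched by level. Rises of all genes had medians of 0.49 at means of 100 to 1000, 0.31 at 1000 to 3000 and 0.35 above that. All rising members but ANKRD37 had means of at least 1000.

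**Figure D1:**
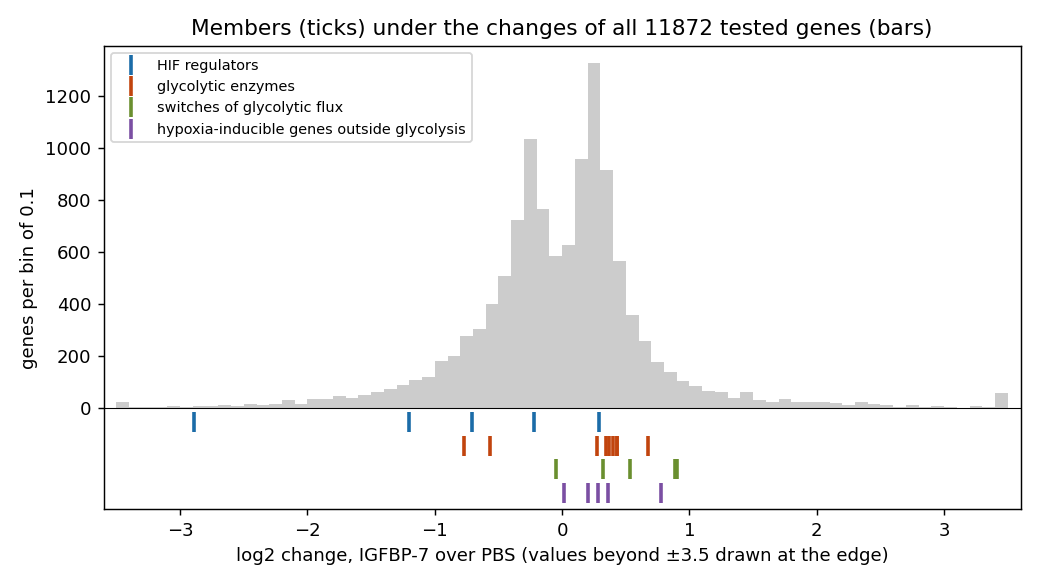
Changes of the members, as ticks coloured by role, under a histogram of the log2 changes (IGFBP-7 over PBS) of all 11872 tested genes in bins of 0.1. Most members that rose lie within the right-hand peak of all genes, CITED2 lies far to the left at -2.89, and the dip of the histogram around 0 shows how few genes with small changes the table holds.

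Among the HIF regulators, IGFBP-7 lowered CITED2 and EPAS1 most. CITED2, which encodes a coactivator-binding protein that competes with HIF alpha subunits for the coactivators CBP and p300 and is itself a HIF target, had 769, 766 and 713 normalized counts in the IGFBP-7 libraries, against 5478, 5562 and 5618 in the PBS libraries. All IGFBP-7 values lay far under all PBS values. The fall was 7.41-fold, a log2 change of -2.89 ± 0.06 (limma adjusted p = 1.48e-38), and 0.362% of the tested genes had a lower one. EPAS1, which encodes the alpha subunit also called HIF2A, had 8027, 7648 and 7023 with IGFBP-7, against 17165, 17064 and 18065 with PBS. The groups were widely separated, with a log2 change of -1.21 ± 0.05 (limma adjusted p = 6.97e-28), or 2.31-fold lower.

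The prolyl hydroxylase genes did not move together. EGLN1, which encodes the main HIF hydroxylase of most cells, had 3203, 3332 and 2887 with IGFBP-7, against 2398, 2612 and 2687 with PBS. It rose 1.22-fold (limma adjusted p = 8.60e-05). EGLN2 had 2936, 2742 and 2873 with IGFBP-7, against 3472, 3263 and 3207 with PBS, and fell by 0.22 ± 0.06 on the log2 scale (limma adjusted p = 0.00137). Each of these genes kept its groups apart by a narrow margin. EGLN3, a strong HIF target in many cells, was nearly silent at 13.3, 16.9 and 12.4 with IGFBP-7, against 27.8, 31.4 and 15.0 with PBS. Its groups overlapped, and its change of -0.71 (95% interval -1.66 to 0.25) did not pass (limma adjusted p = 0.199).

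**Figure D2:**
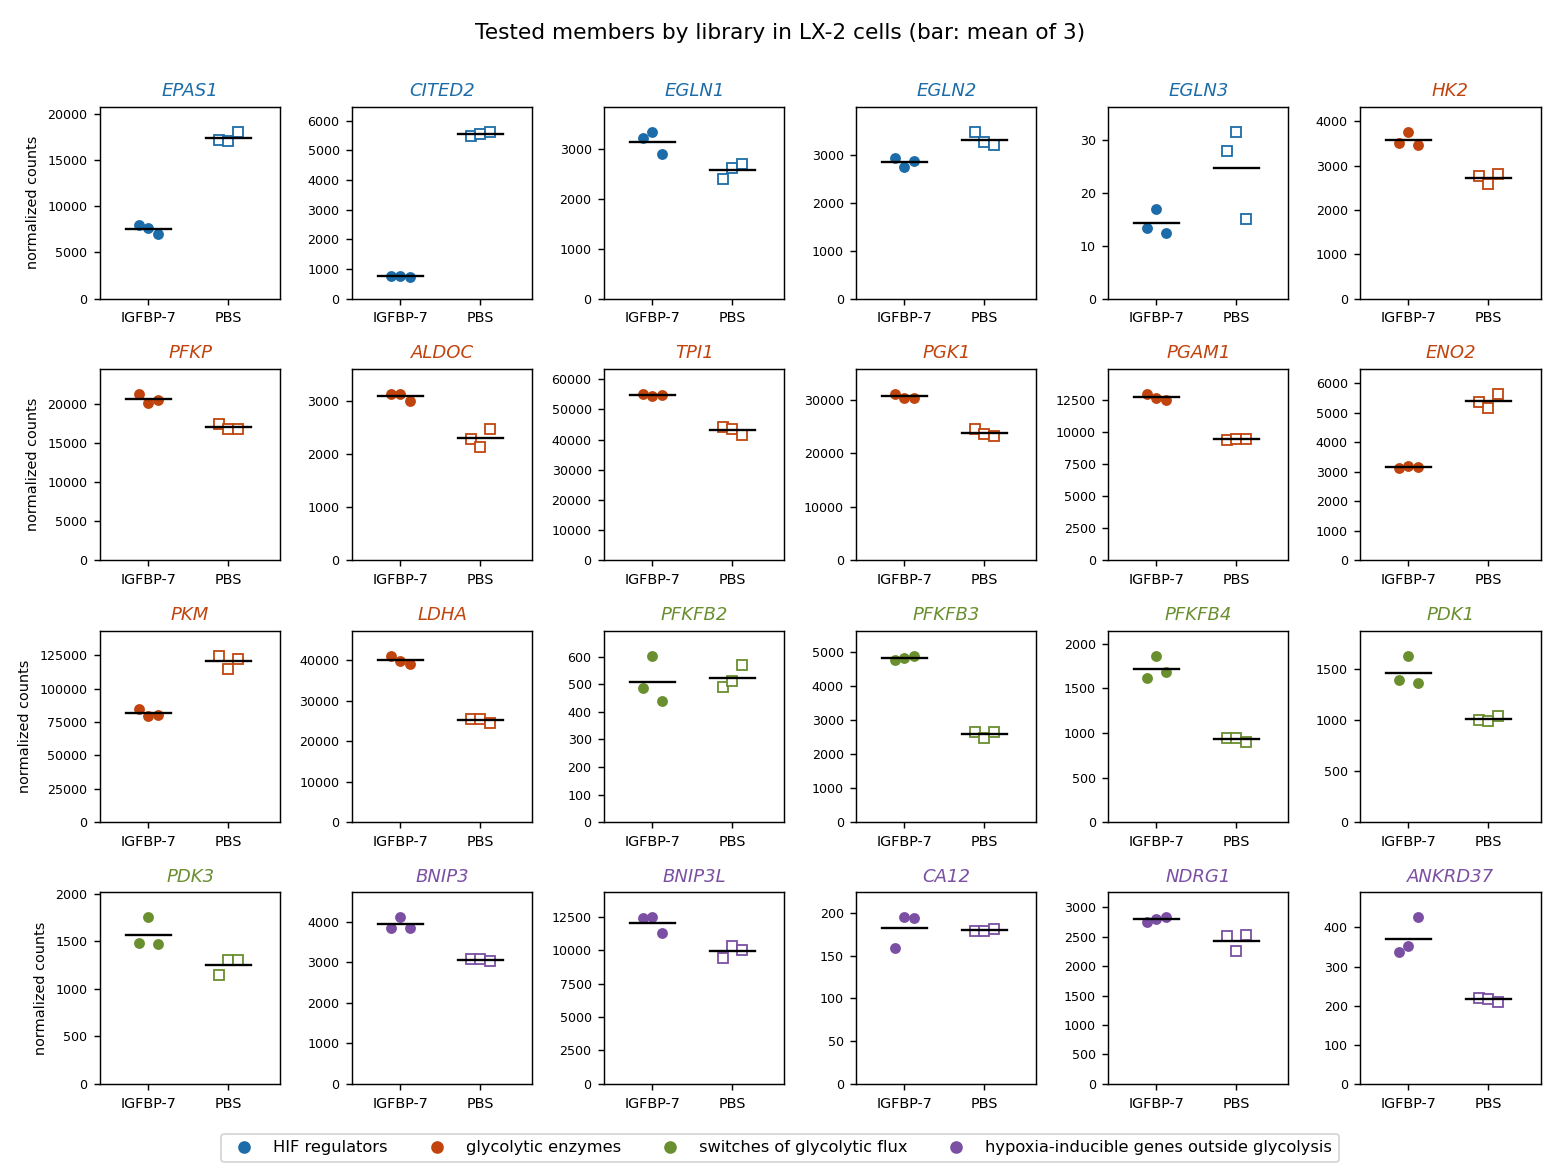
Normalized counts of the 24 tested members in each library, with 1 panel per gene, IGFBP-7 as filled circles on the left, PBS as open squares on the right and bars at the mean of 3 libraries. CITED2 and EPAS1 stand far lower with IGFBP-7, PFKFB3, PFKFB4 and LDHA clearly higher, and the groups overlap in EGLN3, PFKFB2 and CA12.

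Of the 9 glycolytic enzymes with a row, 7 rose and 2 fell, where 31.3% and 29.2% of all tested genes did. The groups did not overlap in any of the 9, against 63.5% of all tested genes. All of the enzymes but ALDOC had a mean of at least 3000. At that level 99.5% of all genes passed, 58.8% as rises and 40.7% as falls, so passing does not set the enzymes apart. The rises ran from 1.21-fold to 1.59-fold. In the first steps, HK2, the inducible hexokinase gene that traps glucose as its phosphate, had 3511, 3758 and 3474 with IGFBP-7, against 2763, 2580 and 2820 with PBS. PFKP, the platelet-type phosphofructokinase gene of the committed step, had 21269, 20095 and 20535 with IGFBP-7, against 17466, 16790 and 16799 with PBS. These are rises of 0.40 ± 0.06 and 0.28 ± 0.04 on the log2 scale (limma adjusted p = 1.05e-07 and 1.31e-07). ALDOC, an aldolase gene best known from brain, averaged 3083 ± 73.8 with IGFBP-7 and 2293 ± 168 with PBS (SD, n = 3 each), a rise of 0.43 ± 0.06.

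In the middle of the pathway, TPI1, which encodes the triosephosphate isomerase, had 55139, 54354 and 54595 with IGFBP-7, against 44244, 43482 and 41548 with PBS. PGK1, which encodes the phosphoglycerate kinase that makes the first ATP, had 31159, 30418 and 30416 with IGFBP-7, against 24573, 23571 and 23301 with PBS. The phosphoglycerate mutase gene PGAM1 had 12966, 12623 and 12486 with IGFBP-7, against 9348, 9462 and 9440 with PBS. In all of them the lowest IGFBP-7 library stood well above the highest PBS library, at log2 changes of 0.34 ± 0.04, 0.36 ± 0.04 and 0.43 ± 0.04.

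The last steps split. LDHA, the lactate dehydrogenase subunit gene classed with glycolytic tissues, had the largest rise of the enzymes, with 41153, 39869 and 39137 with IGFBP-7, against 25497, 25432 and 24454 with PBS. Its change was 0.67 ± 0.04 (limma adjusted p = 8.06e-21), or 1.59-fold. PKM, the pyruvate kinase gene that acts just before it, went the other way, with 84955, 79278 and 80456 with IGFBP-7, against 124704, 114923 and 121952 with PBS. That is a fall of 0.56 ± 0.04 on the log2 scale (limma adjusted p = 5.89e-19), or 1.48-fold; quantile normalization, another scaling, gave a log2 change of -1.53. ENO2, the enolase gene known as a neuronal marker and as a HIF target, had 3118, 3191 and 3144 with IGFBP-7, against 5352, 5152 and 5640 with PBS. It fell 1.71-fold (limma adjusted p = 1.73e-17). PKM makes alternative transcripts, which gene counts do not tell apart.

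The LDHA to PKM ratio within a library was chosen after its values were seen. It does not depend on a scaling by 1 factor per library, but quantile normalization moves it, with log2 changes of 0.45 for LDHA and -1.53 for PKM. With the authors' scaling, the ratio on the log2 scale was -1.05, -0.99 and -1.04 with IGFBP-7, against -2.29, -2.18 and -2.32 with PBS. The ratio was 2.35 times as high with IGFBP-7, with no overlap (exact two-sided permutation p = 0.10, the smallest that 3 against 3 libraries can give). With that scaling, the summed normalized counts of the 9 enzymes were 250115 ± 5442 with IGFBP-7 and 249389 ± 6403 with PBS (SD, n = 3 each). PKM took 32.6% ± 0.503 of that sum with IGFBP-7 and 48.3% ± 0.998 with PBS, and LDHA 16.0% ± 0.169 with IGFBP-7 and 10.1% ± 0.320 with PBS. These sums are not per length and say nothing of which enzyme is the more abundant. They also depend on the scaling, since scaling to the library total moved the median change of the 9 enzymes by -0.14. Of the 17 listed enzymes, 8 were not analysed here and are not in the sums.

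Of the 5 switches of glycolytic flux, 4 rose and PFKFB2 did not pass, where 31.3% of all tested genes rose. The share was 48.3% at means of 1000 to 3000, the range of PFKFB4, PDK1 and PDK3. It was 58.8% above that, the range of PFKFB3. The PFKFB genes encode enzymes that make and remove the sugar bisphosphate that activates phosphofructokinase. PFKFB3, the form with the highest kinase activity, had 4769, 4825 and 4885 with IGFBP-7, against 2639, 2462 and 2647 with PBS. PFKFB4 had 1619, 1869 and 1682 with IGFBP-7, against 941, 949 and 899 with PBS. They rose by 0.90 ± 0.06 and 0.89 ± 0.08 on the log2 scale (limma adjusted p = 1.41e-19 and 1.47e-14), the largest rises among the 24 tested members. PFKFB2, the form known from heart, had 486, 605 and 439 with IGFBP-7, against 491, 512 and 569 with PBS. The groups overlapped, and the change of -0.05 had a 95% interval of -0.27 to 0.17 (limma adjusted p = 0.717).

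PDK1 and PDK3 encode kinases that switch off pyruvate dehydrogenase and so keep pyruvate out of mitochondria. PDK1 had 1392, 1633 and 1367 with IGFBP-7, against 997, 988 and 1036 with PBS, a rise of 0.54 ± 0.08 (limma adjusted p = 7.03e-08). PDK3 had 1480, 1752 and 1475 with IGFBP-7, against 1149, 1308 and 1305 with PBS, a rise of 0.32 ± 0.08 (limma adjusted p = 0.000349). For both, IGFBP-7 replicate 2 was the highest library and no PBS library reached the lowest IGFBP-7 library.

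**Figure D3:**
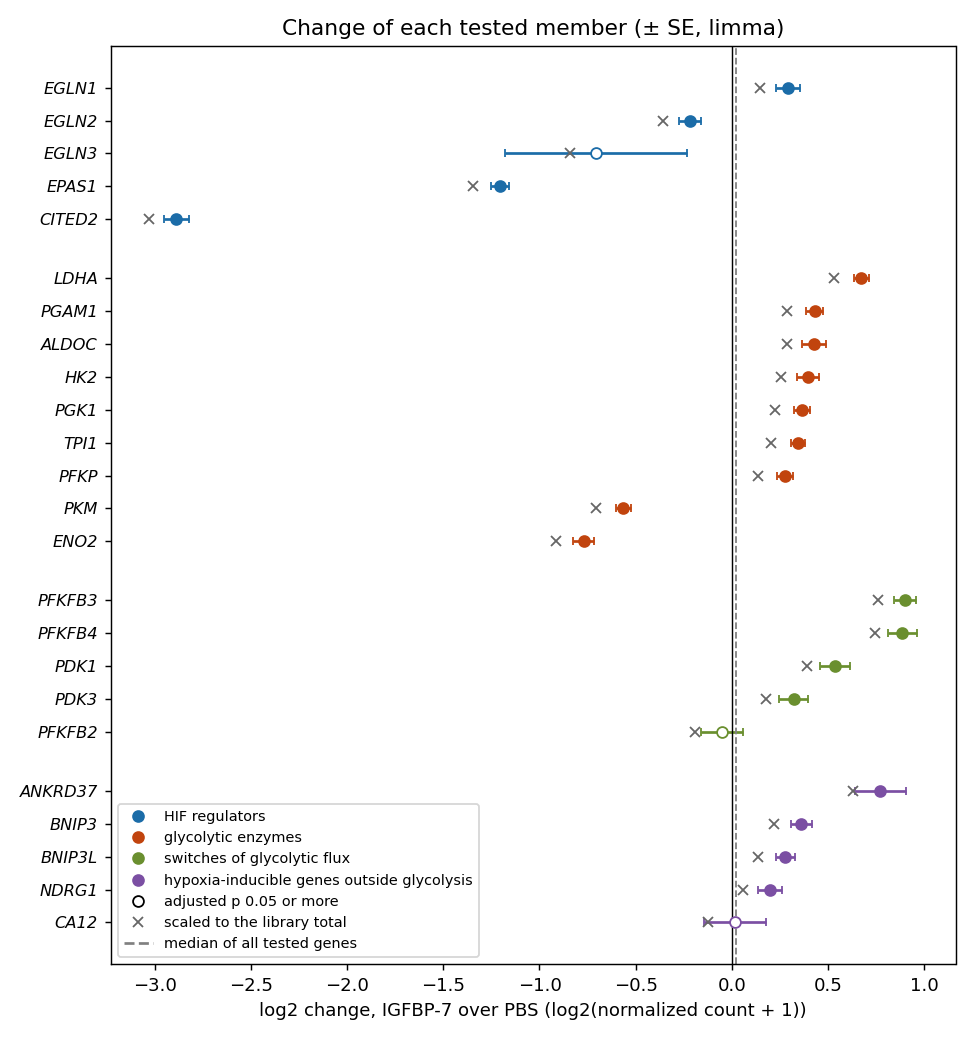
Log2 change of each tested member, IGFBP-7 over PBS, as points with limma's SE, grouped by role, with open points for adjusted p of 0.05 or more. Crosses give the change with libraries scaled to their totals and the dashed line is the median of all tested genes; under that scaling NDRG1 comes close to 0 and CA12 changes sign, while no called member does.

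Of the 6 HIF target genes outside glycolysis, 4 rose, CA12 did not pass, and CA9 was under the limit of a mean of 10. Rises made up 31.3% of all tested genes, and 58.8% of those with a mean of at least 3000, the level of BNIP3 and BNIP3L. ANKRD37, a small ankyrin-repeat gene induced by hypoxia, had 337, 351 and 426 with IGFBP-7, against 220, 218 and 209 with PBS, a rise of 0.77 ± 0.13 (limma adjusted p = 2.05e-06). BNIP3 and BNIP3L, which encode mitophagy receptors, averaged 3935 ± 148 and 12046 ± 645 with IGFBP-7, against 3059 ± 25.2 and 9925 ± 458 with PBS (SD, n = 3 each). Their rises of 0.36 ± 0.06 and 0.28 ± 0.05 were of the size seen for PGK1 and PFKP. NDRG1, a stress-responsive gene, rose by 0.20 ± 0.06 (limma adjusted p = 0.00458), but not with scaling to the library total (adjusted p = 0.423) or without PBS replicate 2 (adjusted p = 0.0538).

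Neither carbonic anhydrase gene gave a call. CA9, whose protein is a widely used hypoxia marker, stood at 3.07, 4.23 and 4.13 with IGFBP-7, against 13.4, 5.89 and 4.27 with PBS. A count of 3 fragments corresponds to 2.54 to 3.20 normalized counts, so most CA9 values were barely above that floor. CA12 had 159, 195 and 194 with IGFBP-7, against 179, 179 and 182 with PBS. Its change of 0.02 had a 95% interval of -0.30 to 0.34 (limma adjusted p = 0.932), and the IGFBP-7 libraries lay on both sides of the PBS libraries.

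Paralogs were compared within libraries, where a single factor per library cancels, over the 6 pairs whose members were both tested. The EGLN2 to EGLN1 ratio differed by -0.51 on the log2 scale (IGFBP-7 minus PBS), the PFKFB2 to PFKFB3 ratio by -0.95, the PDK3 to PDK1 ratio by -0.21 and the EGLN3 to EGLN1 ratio by -0.996. In each of these pairs the groups did not overlap (exact two-sided permutation p = 0.10, the smallest possible, and 0.15 adjusted over the 6 pairs). For EGLN3 to EGLN1 the gap was narrow, with the highest IGFBP-7 library at -7.54 and the lowest PBS library at -7.40. EGLN3 itself was nearly silent, at 12.4 to 31.4 normalized counts, and its own groups overlapped (limma adjusted p = 0.199). Over the alternatives that kept all libraries, the difference of the EGLN3 to EGLN1 ratio ran from -0.996 to -0.88. With single libraries left out in turn, it ran more widely, from -1.34 to -0.81. How often groups separate in other gene pairs was not tested. The PFKFB4 to PFKFB3 ratio differed by -0.02 and the BNIP3L to BNIP3 ratio by -0.08, with groups that overlapped (exact permutation p = 0.90 and 0.20, adjusted 0.90 and 0.24).

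Related genes outside the member list were taken from lists by function. Of 10 tested glucose, lactate and pyruvate carriers, 6 rose, 3 fell and 1 did not pass, where 31.3% and 29.2% of all tested genes rose and fell. Among all genes with means of 100 to 1000, 24.3% rose and 27.6% fell. At means of 1000 to 3000, 48.3% rose and 38.6% fell, and above that 58.8% and 40.7%. The carriers lay in each of these ranges, with SLC2A1 and SLC16A1 in the highest. Over the alternatives, 5 to 6 of the carriers rose and 3 fell. SLC2A1, the GLUT1 glucose transporter gene and a HIF target, had 6798, 6453 and 6574 with IGFBP-7, against 3082, 3095 and 3225 with PBS, a 2.11-fold rise. SLC16A1, a lactate carrier gene, rose 1.61-fold and SLC2A13, a myo-inositol transporter gene, 1.37-fold. SLC2A3, the GLUT3 gene, fell 1.40-fold, the monocarboxylate carrier gene SLC16A7 1.57-fold and the mitochondrial pyruvate carrier gene MPC2 1.20-fold.

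At the entry of pyruvate into mitochondria, 4 genes of the pyruvate dehydrogenase list were tested. The counts in this paragraph stand beside 31.3% rises and 29.2% falls among all tested genes. PDP1, which encodes a phosphatase that reverses the action of the PDK kinases, had 1141, 1184 and 1293 with IGFBP-7, against 2234, 2357 and 2441 with PBS. It fell 1.94-fold (limma adjusted p = 4.87e-17), and PDK2 fell 1.19-fold, so the PDK genes did not all move one way. PDK4 was under the limit of a mean of 10 and was not tested. It had 2.04, 1.69 and 0 with IGFBP-7, against 10.3, 23.6 and 12.8 with PBS. DLAT, a core subunit gene, rose 1.26-fold and 1 gene did not pass. Of 6 other glycolytic enzymes tested, 2 rose and 4 did not pass. BPGM, which makes the bisphosphoglycerate side product, had 1596, 1490 and 1491 with IGFBP-7, against 657, 598 and 675 with PBS, a 2.37-fold rise. ADPGK, the ADP-dependent glucokinase gene, rose 1.16-fold, though not with scaling to the library total (adjusted p = 0.253). The list gave 1 fall with that scaling and without IGFBP-7 replicate 2.

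Of 8 other HIF pathway regulators tested, 2 rose, 4 fell and 2 did not pass, where 31.3% and 29.2% of all tested genes rose and fell. ARNT2, which encodes a beta subunit that can pair with HIF alpha subunits, had 742, 653 and 611 with IGFBP-7, against 1615, 1583 and 1654 with PBS. It fell 2.42-fold (limma adjusted p = 4.11e-19), with wide separation. The other largest falls were in NPAS1, a related factor gene (1.57-fold), and CITED4 (1.38-fold), and the ubiquitin ligase genes SIAH1 and SIAH2 rose 1.27-fold and 1.16-fold. CITED4 did not pass when any of IGFBP-7 replicates 2 and 3 or PBS replicates 2 and 3 was left out (adjusted p = 0.0644 to 0.168 by limma), nor SIAH2 when any of IGFBP-7 replicate 1 or PBS replicates 1 and 2 was (adjusted p = 0.0803 to 0.205). Without IGFBP-7 replicate 3 or PBS replicate 3 the list gave 2 falls. SIAH2 also missed the threshold with scaling to the library total (adjusted p = 0.502) and with edgeR (adjusted p = 0.0575), and CITED4 with quantile normalization (adjusted p = 0.0621) and with no filter on low genes (adjusted p = 0.0650).

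Among 32 other hypoxia-inducible genes there were 23 rises, 6 falls and 3 genes that missed the threshold, and the median change was 0.48. The shares over all tested genes were 31.3% rises and 29.2% falls. By level, 24.3% rose and 27.6% fell at means of 100 to 1000, and 48.3% and 38.6% at 1000 to 3000. Above that 58.8% rose and 40.7% fell, and the list has genes in each of these ranges. Scaling to the library total left 21 rises and 7 falls, at a median change of 0.34. Of the 32, 14 rose and 3 fell by at least 1.5-fold, where 9.69% and 13.1% of all tested genes did. BHLHE40, a repressor gene of the clock and of hypoxia, rose 7.69-fold. It averaged 17971 ± 683 with IGFBP-7 and 2339 ± 151 with PBS (SD, n = 3 each). AK4, a mitochondrial adenylate kinase gene, averaged 452 ± 35.3 with IGFBP-7 and 110 ± 31.1 with PBS (SD, n = 3 each). VEGFA rose 4.41-fold. ADM, STC2 and ZNF395 fell 4.13-fold, 2.94-fold and 1.51-fold. SLC2A1 and SLC2A3 are in this list too.

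**Figure D4:**
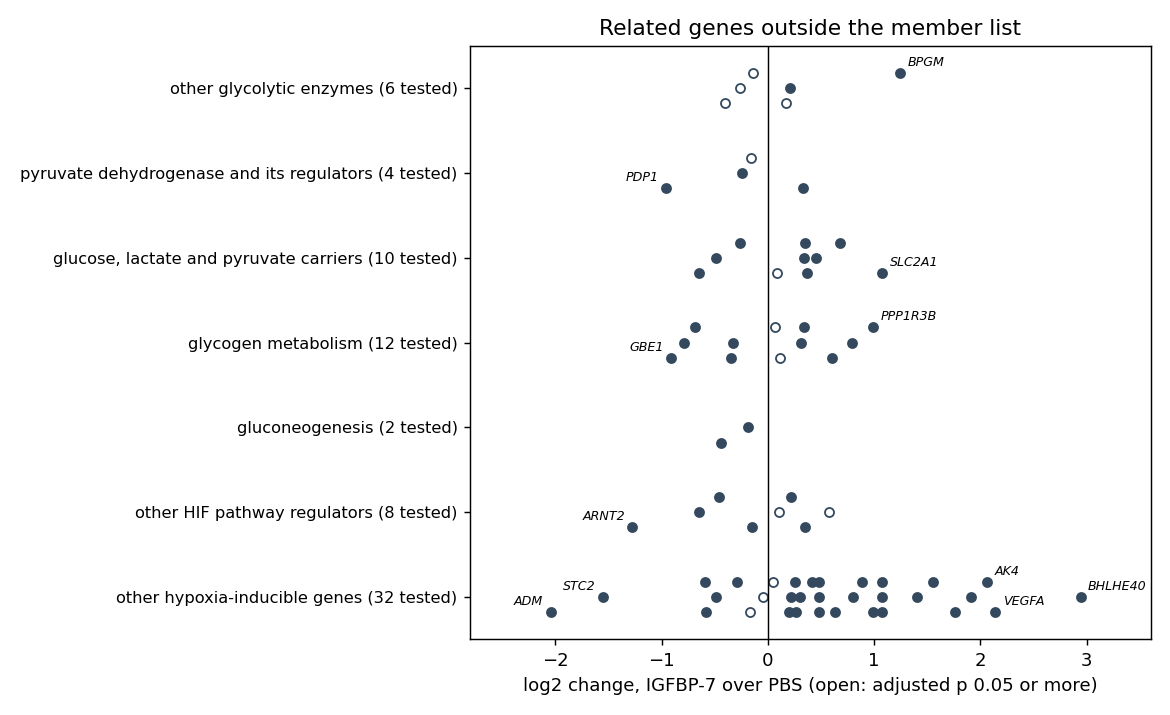
Log2 changes (IGFBP-7 over PBS) of the tested genes of each related list with more than 1 tested gene, filled where the adjusted p was under 0.05 and open otherwise, with a few of the genes named in the text labelled. The hypoxia-inducible list reaches from ADM at -2.04 to BHLHE40 at 2.94, with most of its genes right of 0.

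Stellate identity was checked on markers. Of 14 stellate markers with a row 12 were above a mean of 10, ACTA2, COL1A1 and PDGFRB among them, LRAT and GFAP were not analysed here, and DES, a defining marker, was at or under 4.09 in every library. Of the 12, 8 rose, THY1 and HAND2 fell by 0.27 and 0.59 on the log2 scale, and HGF and NGFR did not pass. The shares over all tested genes were 31.3% rises and 29.2% falls. The markers summed to 332118 to 367436 with IGFBP-7 and 125131 to 129213 with PBS. Of these sums COL1A1 averaged 198928 ± 8843 with IGFBP-7 and 49614 ± 1794 with PBS (SD, n = 3 each). Leukocyte markers summed to 1736 to 2020 with IGFBP-7 and 3286 to 3374 with PBS, with 3 of 9 above a mean of 10 and the defining PTPRC at or under 10.7. These 3 went different ways: CD68, most of the sum, fell 1.96-fold and CD14 4.65-fold, and CSF1R rose 5.11-fold. Epithelial markers summed to 37692 to 43785 with IGFBP-7 and 27497 to 28318 with PBS, nearly all from KRT8 and KRT18, with 4 of 7 above a mean of 10, EPCAM at or under 10.2 and CDH1 at or under 2.04. Hepatocyte markers summed to 324 to 360 with IGFBP-7 and 312 to 393 with PBS, with 2 of 10 above a mean of 10 and ALB at or under 3.39. Endothelial markers, 6 of 8 above a mean of 10, summed to 2330 to 2394 with IGFBP-7 and 2585 to 2806 with PBS, and the defining CDH5 was listed at 0 in all IGFBP-7 libraries, against 5.89 to 17.1 with PBS. TIE1, most of that sum, fell 1.23-fold, PECAM1 and TEK rose 1.83-fold and 1.63-fold, and 3 did not pass. The part of these differences in the results was not tested. In bulk RNA, fewer cells with a transcript and less of it per cell cannot be told apart. Added protein brings no RNA, so no gene here checks the labels.

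Some values are uncertain because of the gene models. In GENCODE 29, 39 pseudogenes are named after BNIP3, 13 after PGAM1, 6 after LDHA, 5 after PKM and 4 after TPI1, and none of them has a row. Exons of TPI1, PGK1, PFKFB2, PFKFB4, HK2, PDK1, BNIP3L, CA9 and ANKRD37 overlap those of another gene in the table. Whether counting used strand is unknown from the labels and notes. PGK1 overlaps ATP7A and PFKFB4 overlaps UCN2 on the same strand, so stranded counting would not separate these.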

How the data were processed

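RNA sequencing of poly(A) RNA from 6 LX-2 libraries, made with a directional kit per the labels' protocols, was used. The deposited table gives a normalized count per gene and library, a signal that per the file headers the authors obtained by normalizing counts. The submitters' processing notes name DESeq2, STAR, featureCounts and Subread, with no versions; the sources used here give no build, annotation or row filter. Within each library all values were whole multiples of 1 step (100% within 0.01 of a step), so reads were recovered, with 2 taken as 1 fragment. Replicate pairs differed beyond sampling noise (chi-square per degree of freedom 5.10 to 6.93), so all 6 libraries were counted. Floors cover counting error only, while SE and intervals of log2 changes come from limma's estimate of the spread between libraries.

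Genes averaging 10 or more (11872) were tested with limma-trend (limma 3.58.1, R 4.3.3) on log2(normalized count + 1), which understates changes of low genes, two-sided, threshold 0.05 on the adjusted p. Alternatives were pseudocounts of 0.5 and 5, other filters and scalings, edgeR 4.0.16 and DESeq2 1.42.0 on recovered reads, a replicate block and leaving out libraries; scripts were tested on simulated data. By rule, values in every library are given for members changed at least 1.5-fold, for those not passing and for EPAS1, PKM and LDHA; those of further members were added after they were seen. Up to 3 rises and 3 falls were named per related list. Members, lists and pairs were chosen with earlier results of these data known.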

Additional observations from a re-analysis of the deposited data

How the results depend on the processing

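Over the alternatives, 15 to 16 members rose and 5 fell. NDRG1 lost its call with scaling to the library total and without PBS replicate 2 (log2 changes of 0.06 and 0.15); the other 20 called members kept theirs under every alternative run. With scaling to the library total, 2435 of all tested genes were higher, and CA12 had a change of -0.12. The cause was not tested. Leaving out 1 library at a time gave -0.179 to 0.0510 for PFKFB2, -0.0308 to 0.113 for CA12 and -0.0751 to 0.0338 for the log2 ratio of PFKFB4 to PFKFB3, and 15 to 16 members higher.

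Same-numbered libraries did not deviate together (correlations of -0.05, 0.01 and -0.05 for numbers 1 to 3), so the numbers were not taken as a pairing. With a replicate block, 16 members rose and 5 fell, and 3715 of all genes were higher and 3462 lower. Recovered reads gave 3541 higher and 3562 lower genes with edgeR and 3572 and 3536 with DESeq2. Quantile normalization gave log2 changes of -1.53 for PKM and 0.13 for TPI1. At this depth CA9 stayed under a mean of 10 and was not tested.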

Other observations

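Carbon also leaves glycolysis through glycogen, and gluconeogenesis runs the pathway in reverse. Of 12 glycogen genes tested, 5 rose, 5 fell and 2 did not pass, where 31.3% and 29.2% of all tested genes rose and fell. GYS1, the muscle-type glycogen synthase gene, averaged 3242 ± 155 with IGFBP-7 and 2137 ± 163 with PBS, PPP1R3B, which targets a phosphatase to glycogen, 547 ± 60.3 with IGFBP-7 and 274 ± 19.8 with PBS, and PGM2L1, a phosphotransferase gene, 2108 ± 98.4 with IGFBP-7 and 1223 ± 119 with PBS (SD, n = 3 each). GBE1, the glycogen branching enzyme gene, fell 1.88-fold, PPP1R3C, another phosphatase-targeting gene, 1.72-fold and PGM2 1.60-fold. Synthesis genes thus stood among both the rises and the falls. Both tested gluconeogenic genes fell: PC, the pyruvate carboxylase gene, 1.36-fold, and PCK2, the mitochondrial carboxykinase gene, 1.14-fold. PCK2 did not pass when any of IGFBP-7 replicates 1 and 2 or PBS replicate 3 was left out (limma adjusted p = 0.0528 to 0.276).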
